A study of Mus musculus with 4 samples.

Results

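The matrix metalloproteases, the ADAMTS proteases and the tissue inhibitors of metalloproteases (Timps) were followed in the stroma of the mouse thymus. All genes whose symbol was Mmp or Adamts with a number, or Timp1 to Timp4, were taken, which gave 45 of the 32285 genes listed in the count matrices. They were 22 Mmp genes, 19 Adamts genes and 4 Timp genes. Expression had been measured by droplet 3′ RNA-seq, in unique molecular identifiers (UMIs), in CD45-negative thymic cells of 6-month-old C57BL/6 mice. The design holds 2 libraries from wild-type mice, called mock in the labels and WT here, and 2 from mice homozygous for the LacZ allele of Foxn1, written Z/Z. Foxn1 encodes the transcription factor that drives differentiation of thymic epithelial cells (TECs). The LacZ allele is hypomorphic and is present from the germ line, so that every cell type of a Z/Z mouse carried it. The sources used here do not give the place of the cassette in the gene. Both groups were untreated and of the same age, thymi were pooled within a library, and CD45-positive cells were removed before sorting.

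Both protease families need a zinc ion and cleave proteins of the extracellular matrix or of the cell surface. The MMPs are grouped by substrate and form into collagenases, gelatinases, stromelysins, matrilysins and membrane-type enzymes. The ADAMTS enzymes carry thrombospondin repeats and include proteoglycanases that cut versican and aggrecan, procollagen N-proteinases and fibrillin-binding members. Timps bind the active site of MMPs, and Timp3, which is held in the matrix, also inhibits ADAMTS4 and ADAMTS5. In the thymus the matrix is made largely by fibroblasts and mural cells around vessels and in the capsule, and TECs rest on it.

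Of 13981 called barcodes, 9846 cells were kept and 9490 were counted as stromal. These include the unnamed clusters 17 and 19, and cluster 19 had Cd8a and Lat among its leading genes. TECs numbered 558, 105, 1960 and 1544 in WT 1, WT 2, Z/Z 1 and Z/Z 2, fibroblasts 599, 191, 1218 and 746, endothelial cells 109, 25, 696 and 673, and mural cells (smooth muscle and pericytes) 68, 11, 404 and 305. Called barcodes held between 8468086 UMIs in WT 2 and 50705511 in Z/Z 1, and the median depth of a TEC was 16863.5 and 17836 UMIs in WT against 6746.5 and 7023 in Z/Z. Each lineage carried its own markers, for instance 11189 to 18413 CPM (UMIs of a gene per 1000000 UMIs of the summed cells of a lineage in a library) of 7 TEC markers in TECs against 110 to 661 in the other 3 lineages. The same markers had named the clusters, so these sums describe the lineages and do not check the names. Libraries of 1 genotype shared called barcodes. WT 1 and WT 2 had 202 in common, 16.9% of WT 2, and Z/Z 1 and Z/Z 2 had 249, whereas a WT and a Z/Z library shared at most 6. In 18 pairs in WT and 27 in Z/Z both copies of a shared barcode were kept in the same lineage. The 2 copies resembled each other more than other cells of these pairs in their lineage. The median correlation across genes was 0.656 against 0.436 in WT and 0.613 against 0.545 in Z/Z. Leaving out only the shallower copy changed no count of members given for TECs, fibroblasts, endothelial or mural cells. Leaving out every shared cell took WT 2 from 2635471 TEC UMIs to 426419, after which 0 members were called in TECs and 0 in endothelial cells by edgeR, and 3 were called higher and 1 lower in fibroblasts.

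Foxn1 itself had 90.6 and 125 CPM in WT TECs and 50.9 and 68.5 CPM in Z/Z TECs. It was lower in both Z/Z libraries at a log2 fold change (log2FC, Z/Z over WT) of −0.70 (SE 0.23) and missed the threshold (edgeR adjusted p = 0.0833). Other measures moved with genotype in TECs. The summed level of 12 immediate-early and heat-shock genes, a list chosen after the data were seen, was 7531 and 9193 CPM in WT against 19234 and 16468 in Z/Z, with 9 of 12 genes higher in both Z/Z libraries. Haematopoietic markers summed to 1102 and 1254 CPM in WT TECs against 96.5 and 380 in Z/Z TECs, with 5 of 11 lower in both Z/Z libraries. Most of this sum was Cd52 (765 and 944 CPM in WT, 39.4 and 212 in Z/Z) and Laptm5 (190 and 178, 26.4 and 61.7). Ptprc, Cd3e, Cd3d, Trbc1, Trbc2 and Lck overlapped between genotypes. Fibroblast markers summed to 140 and 113 CPM in WT TECs against 274 and 310 in Z/Z TECs, with 5 of 7 higher in both and none at 0. Smooth muscle markers summed to 197 and 105 CPM in WT TECs against 370 and 403 in Z/Z TECs, with 3 of 7 higher and 2 lower in both Z/Z libraries and none at 0. Most of the rise was Tagln (36.7 and 16.3 CPM in WT, 205 and 201 in Z/Z), and Acta2 and Myh11 overlapped between genotypes. The part of these lists in the results for TECs was not tested. Free RNA was estimated from droplets of at most 10 UMIs, at 7.04% to 13.6% of TEC UMIs and 2.49% to 7.97% in the other lineages. In the TECs of WT 1 the estimate exceeded the measured level of some members, such as Mmp3 (5.04 CPM expected, 0.244 measured). It was thus too high for these members, and subtracting it took out too much there.

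A run of 9 Mmp genes on chromosome 9 held 5 of the 13 members called between genotypes in TECs, and the promoters of these 5 are printed first. The genes lie between positions 7272514 and 7699585 (GRCm38), a stretch of 427 kb, in the order Mmp13, Mmp12, Mmp1b, Mmp3, Mmp10, Mmp8, Mmp27, Mmp20 and Mmp7. In TECs 5 of the 9 had enough UMIs to be tested. All 5 passed the threshold between Z/Z and WT, Mmp3 upward and Mmp10, Mmp27, Mmp20 and Mmp7 downward, where 22.4% of the 18885 genes tested in TECs passed. A gene was tested where its UMIs sufficed in as many libraries as 1 genotype has. Mmp3 (0.244 and 0 CPM in WT), Mmp10 (0.0491 and 0 in Z/Z) and Mmp27 (0.0491 and 0.166 in Z/Z) sufficed only in the other genotype. Their calls were thus partly set by the filter, and the 5 of 5 is not read against that share. Promoters were taken from RefSeq (GRCm38.p6), from 250 bases before the transcription start to 50 after it, and matched 31 of the 45 genes. The 5 below are shown because their genes changed in opposite directions, with capitals marking TATAAA, the TATA box, and TGANTCA on either strand. TGANTCA is a loosened form of the AP-1 site, whose middle letter is C or G.
Mmp3, chr9:7445572-7445871, plus strand: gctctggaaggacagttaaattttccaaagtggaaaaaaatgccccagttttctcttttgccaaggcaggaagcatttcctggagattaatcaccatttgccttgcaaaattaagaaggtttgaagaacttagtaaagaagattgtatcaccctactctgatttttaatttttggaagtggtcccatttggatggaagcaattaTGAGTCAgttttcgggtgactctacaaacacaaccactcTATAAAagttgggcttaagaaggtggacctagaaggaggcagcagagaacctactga
Mmp10, chr9:7502092-7502391, plus strand: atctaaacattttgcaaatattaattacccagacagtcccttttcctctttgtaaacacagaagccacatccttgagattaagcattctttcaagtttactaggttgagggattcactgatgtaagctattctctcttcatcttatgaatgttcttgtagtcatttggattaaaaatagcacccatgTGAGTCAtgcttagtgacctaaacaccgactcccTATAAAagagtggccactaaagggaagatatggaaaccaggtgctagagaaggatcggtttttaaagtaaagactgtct
Mmp27, chr9:7571146-7571445, plus strand: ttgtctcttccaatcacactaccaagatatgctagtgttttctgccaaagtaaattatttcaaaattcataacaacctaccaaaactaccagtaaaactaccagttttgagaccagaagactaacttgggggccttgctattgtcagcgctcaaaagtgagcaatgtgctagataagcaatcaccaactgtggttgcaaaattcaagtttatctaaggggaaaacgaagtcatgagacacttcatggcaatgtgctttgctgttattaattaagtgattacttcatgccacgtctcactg
Mmp20, chr9:7627981-7628280, plus strand: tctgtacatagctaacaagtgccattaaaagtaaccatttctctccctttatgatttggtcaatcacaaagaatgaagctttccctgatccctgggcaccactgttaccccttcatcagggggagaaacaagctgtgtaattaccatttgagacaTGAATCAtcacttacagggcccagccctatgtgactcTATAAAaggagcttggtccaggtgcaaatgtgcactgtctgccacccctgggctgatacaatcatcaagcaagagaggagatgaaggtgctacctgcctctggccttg
Mmp7, chr9:7691840-7692139, plus strand: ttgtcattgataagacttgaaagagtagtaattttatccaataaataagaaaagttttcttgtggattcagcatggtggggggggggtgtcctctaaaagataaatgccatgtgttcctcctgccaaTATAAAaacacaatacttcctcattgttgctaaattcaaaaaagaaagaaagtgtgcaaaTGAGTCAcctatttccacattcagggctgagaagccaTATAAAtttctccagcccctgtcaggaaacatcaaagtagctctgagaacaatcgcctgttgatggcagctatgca
Counting a gene once where any of its listed promoters matched, 8 of the 9 chromosome 9 genes held TATAAA, 7 held TGANTCA and 7 held both, while 2 of the other 22 matched members held TATAAA and 0 held TGANTCA. Over all 32851 promoters of the table, 13.6% held TATAAA, 7.81% held TGANTCA and 1.54% held both. Both the gene that rose, Mmp3, and 3 of the 4 that fell held both sequences, and Mmp27 held neither in this window. In Mmp20 the match to TGANTCA had A as its middle letter, so it does not have the letters of an AP-1 site. These are matches of letters and were not tested as sites. A pair of Adamts promoters is added for contrast, since both genes were expressed in all 4 lineages, Adamts1 was called in TECs and fibroblasts, and Adamts9 in fibroblasts.
Adamts1, chr16:85803064-85803363, minus strand: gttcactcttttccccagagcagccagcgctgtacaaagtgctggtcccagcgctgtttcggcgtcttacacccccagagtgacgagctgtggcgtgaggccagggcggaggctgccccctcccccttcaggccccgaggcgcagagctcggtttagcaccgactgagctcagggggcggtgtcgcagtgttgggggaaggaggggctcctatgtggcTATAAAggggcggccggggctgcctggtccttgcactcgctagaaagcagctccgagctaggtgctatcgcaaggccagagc
Adamts9, chr6:92943485-92943784, minus strand: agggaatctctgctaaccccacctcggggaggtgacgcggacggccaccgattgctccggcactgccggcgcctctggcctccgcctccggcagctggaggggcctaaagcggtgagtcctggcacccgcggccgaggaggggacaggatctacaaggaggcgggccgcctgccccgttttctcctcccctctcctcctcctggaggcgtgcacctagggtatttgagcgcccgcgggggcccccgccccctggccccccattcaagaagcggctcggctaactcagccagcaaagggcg
The Adamts1 promoter held 1 TATAAA, and that of Adamts9 held neither sequence. Adamts4 and Adamts8 had no entry.

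**Figure D1:**
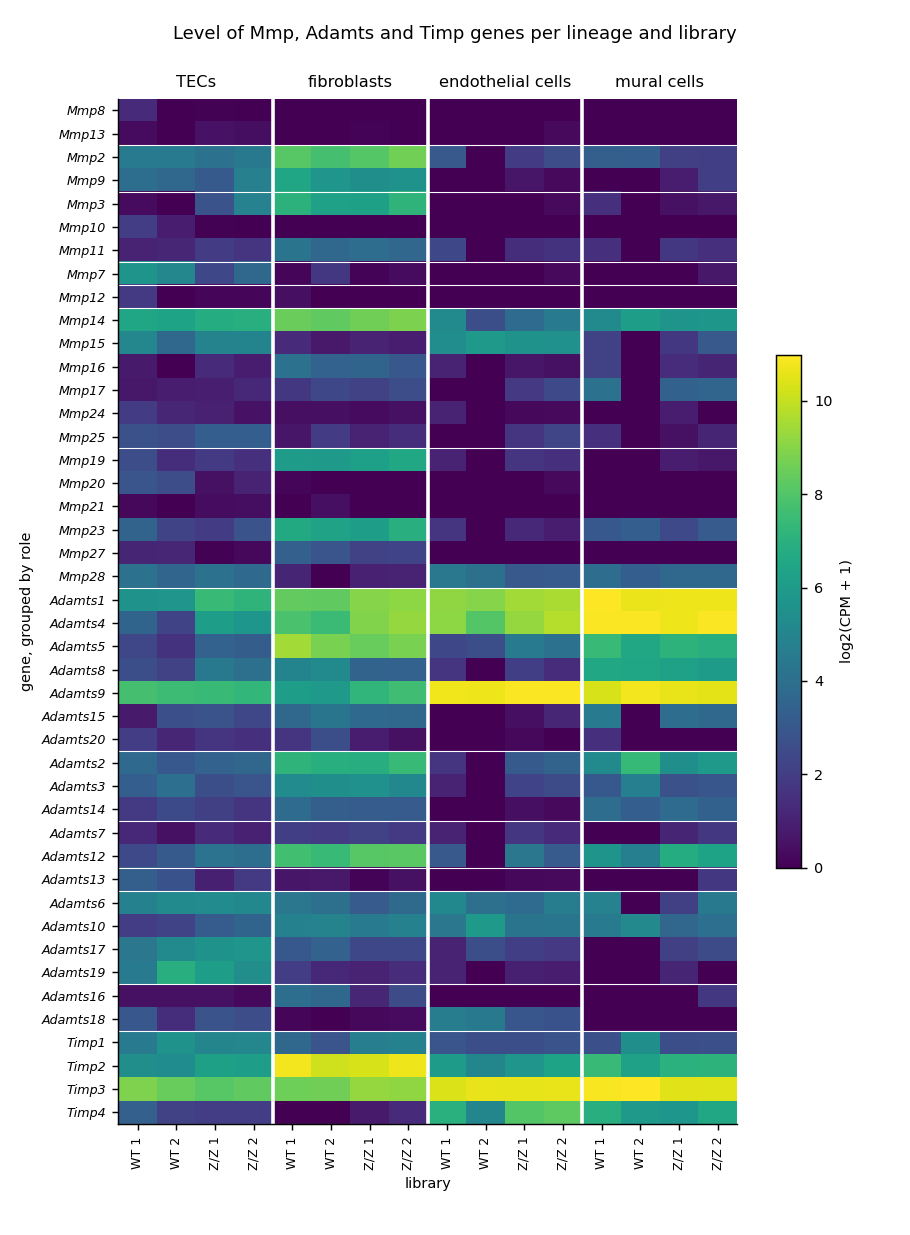
Level of each member, on a log2(CPM + 1) colour scale, in each of the 4 libraries (columns) within TECs, fibroblasts, endothelial cells and mural cells, with genes (lines) grouped by role. Brighter colours are higher levels, Mmp1b (0 UMIs) is left out, Timp2 is brightest in fibroblasts and Adamts9 and Timp3 in endothelial and mural cells, and Mmp7 exceeds 2.47 CPM in TECs only.

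The lineages differed in which members they expressed, and this is given as a description, since the lineages were defined on the same cells. Timp2, a secreted inhibitor that also takes part in activating Mmp2, had 1759, 1150, 1281 and 1652 CPM in the fibroblasts of WT 1, WT 2, Z/Z 1 and Z/Z 2. It had 78.1 to 174 CPM in mural cells, 40.1 to 75.5 in TECs and 31.5 to 80.7 in endothelial cells, and the ranges of TECs and endothelial cells overlapped. Timp3 ranged from 1412 to 2021 CPM in mural cells, 1357 to 1577 in endothelial cells, 380 to 598 in fibroblasts and 275 to 459 in TECs, with overlap between mural and endothelial cells and between fibroblasts and TECs. Timp4 stood at 31.5 to 302 CPM in endothelial cells and 53.4 to 119 in mural cells, which overlapped, and at 2.99 to 9.44 in TECs. In fibroblasts it had 0, 0, 9 and 11 UMIs, at or below the level expected from free RNA in all 4 libraries. Timp1, which is secreted and inducible, was low in the sums of every lineage, from 5.22 CPM in endothelial cells of Z/Z 1 to 48.4 in TECs of WT 2.

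Of the ADAMTS proteoglycanases, Adamts1, Adamts4, Adamts8 and Adamts9 each had their highest level in mural or endothelial cells. Adamts1 ranged from 1640 to 1988 CPM in mural cells, from 505 to 761 in endothelial cells, from 316 to 559 in fibroblasts and from 48.3 to 171 in TECs, and only the endothelial and fibroblast ranges overlapped. Adamts4 ranged from 1673 to 1953 CPM in mural cells and from 3.76 to 68.0 in TECs, with fibroblasts (179 to 597) and endothelial cells (263 to 862) between them and overlapping. Adamts9 reached 1677 to 1942 CPM in endothelial cells and 1293 to 1744 in mural cells, again overlapping, against 156 to 212 in TECs and 58.9 to 195 in fibroblasts. Adamts5 was a fibroblast gene in these cells, at 339 to 693 CPM, and was at most 172 CPM elsewhere. Adamts8 was highest in mural cells at 65.9 to 92.4 CPM, and Adamts19, a fibrillin-related ADAMTS, was at 21.1 to 122 CPM in TECs and at most 3.01 in the other 3 lineages. Among the MMPs, the membrane-type Mmp14, which activates Mmp2 at the cell surface, ranged from 319 to 447 CPM in fibroblasts, 80.6 to 118 in TECs, 37.3 to 69.4 in mural cells and 5.26 to 36.3 in endothelial cells, so that no lineage overlapped another. Mmp1b had 0 UMIs in all kept stromal cells.

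The comparison of Z/Z with WT asks how the stroma differs when Foxn1 is reduced, and TECs are the cells that use it. In TECs 39 members had enough UMIs to be tested, of which 9 rose and 4 fell in Z/Z. In all, 13 of 39 members were called, 33.3%, where 22.4% of the 18885 genes tested were called, 10.4% higher and 12.0% lower. Mmp3, Mmp10 and Mmp27 are among the 13, and their calls were partly set by the filter. These shares are thus not read as a result about the members, and the share called lower was close to that of all genes. The median log2FC of the 39 was 0.35, against −0.00 over all genes tested. By role, 4 of 7 proteoglycanases were called higher and none lower, 1 of 3 stromelysins was higher and 1 lower, 1 of 6 membrane-type MMPs was higher, and 1 of 4 Timps was higher. In bulk sums of this kind, fewer cells of a type and less RNA per cell cannot be told apart, and the TEC sums mix epithelial classes whose numbers differed between genotypes. Without Z/Z 1 only Adamts1 and Mmp3 stayed called, without Z/Z 2 Adamts1, Adamts4, Adamts8, Timp2 and Mmp7, and without WT 1 no member was called lower. Without WT 1 the log2FC of Adamts4 was 4.14 and that of Adamts5 2.25, against 3.05 and 1.60 with all libraries. Without Z/Z 2 that of Mmp7 was −3.13, against −2.25, and Mmp20 and Mmp27 ranged from −3.68 to −2.15 and from −4.22 to −2.65 when Z/Z 2 or Z/Z 1 was left out. In cells thinned to 2000 UMIs, Adamts1, Adamts4, Adamts8, Mmp3 and Mmp7 stayed past the threshold.

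Adamts1, a proteoglycanase that cuts versican and aggrecan, had 48.3 and 51.8 CPM in WT TECs against 171 and 141 in Z/Z TECs. Both Z/Z libraries lay above both WT libraries, with a log2FC of 1.80 (SE 0.17, edgeR adjusted p = 0.00756). The level expected from free RNA was 20.7 and 5.47 CPM in WT against 30.6 and 33.5 in Z/Z, and with that share subtracted the log2FC was 1.95. It passed in 15 of 16 alternatives, the exception being the removal of every cell with a shared barcode.

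Adamts4, an aggrecanase, had 10.7 and 3.76 CPM in WT against 68.0 and 54.0 in Z/Z, without overlap. The log2FC was 3.05 (SE 0.42, edgeR adjusted p = 0.0113). Free RNA would have given 12.9 and 5.33 CPM in WT, at or above what was measured there, and 22.3 and 25.7 CPM in Z/Z, below what was measured. The estimate for WT 1 also exceeded the measured level of Mmp3 and Adamts5. Adamts8, another member of this branch, had 5.21 and 3.34 CPM in WT against 20.8 and 15.8 in Z/Z, again without overlap. Its log2FC was 2.17 (SE 0.33, edgeR adjusted p = 0.0142). Adamts5, the main aggrecanase of cartilage, had 4.07 and 2.09 CPM in WT against 9.92 and 8.30 in Z/Z, with a log2FC of 1.60 (SE 0.41, edgeR adjusted p = 0.0449). Free RNA would have given 14.3 and 2.16 CPM in WT and 6.60 and 6.53 in Z/Z, so that both WT values lay below the level expected from it and both Z/Z values above it by less than 2 times.

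Mmp3, stromelysin-1, had 3, 0, 124 and 517 UMIs in the TECs of WT 1, WT 2, Z/Z 1 and Z/Z 2. Summed over the libraries of a group this was 0.204 CPM in WT and 16.7 CPM in Z/Z, a ratio of 81.6 with a 95% counting interval of 27.8 to 397. Its call (edgeR adjusted p = 0.0195) passed in 12 of 15 alternatives. The WT level was below that expected from free RNA, and the 2 Z/Z libraries differed from each other by several times, at 6.09 and 28.6 CPM. Mmp10, stromelysin-2, went the other way, with 37, 2, 1 and 0 UMIs. It was lower in Z/Z by a ratio of 102, with a counting interval of 17.3 to 4135 (edgeR adjusted p = 0.0225). These intervals cover counting error only.

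Mmp7, matrilysin, a small protease of mucosal epithelia, had 49.9 and 32.6 CPM in WT TECs against 4.22 and 11.7 in Z/Z. Both Z/Z libraries lay below both WT libraries, and the log2FC was −2.25 (SE 0.51, edgeR adjusted p = 0.0335). Mmp20, enamelysin, known from tooth enamel, had 6.51 and 5.01 CPM in WT against 0.393 and 1.16 in Z/Z, with a log2FC of −2.76 (SE 0.64, edgeR adjusted p = 0.0352). Mmp27 had only 15, 3, 1 and 3 UMIs, and its log2FC of −3.29 (SE 0.82, edgeR adjusted p = 0.0420) passed in 3 of 14 alternatives.

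A membrane-type MMP and a pair of further ADAMTS genes were also called higher. Mmp14 had 86.1 and 80.6 CPM in WT against 109 and 118 in Z/Z, with a log2FC of 0.60 (SE 0.13, edgeR adjusted p = 0.0332). Adamts10, a fibrillin-binding member, had 2.93 and 3.76 CPM in WT against 8.30 and 10.8 in Z/Z (log2FC 1.70, SE 0.36, edgeR adjusted p = 0.0284). Adamts12, which can cut cartilage oligomeric matrix protein (COMP), had 4.31 and 7.52 CPM in WT against 17.3 and 14.5 in Z/Z (log2FC 1.67, SE 0.36, edgeR adjusted p = 0.0304). In each case both Z/Z libraries lay above both WT libraries. With free RNA subtracted, Mmp14 stayed past the threshold, while Adamts10 (edgeR adjusted p = 0.11) and Adamts12 (edgeR adjusted p = 0.332) did not. For Adamts12 the estimate in WT 1, 5.72 CPM, exceeded the measured level, so its subtracted fit cannot decide on the call. With cells thinned to 2000 UMIs, Mmp14 had a log2FC of 0.30 and an edgeR adjusted p of 0.309.

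Of the inhibitors, Timp2 had 42.7 and 40.1 CPM in WT TECs against 75.5 and 70.8 in Z/Z. The log2FC was 0.97 (SE 0.15, edgeR adjusted p = 0.0145). Free RNA would have given 63.0 CPM in WT 1, more than was measured, and with that share subtracted the call was lost (edgeR adjusted p = 0.522). The estimate was thus too high for Timp2 in WT 1, so the subtracted fit cannot decide on this call. Timp3 had 459 and 345 CPM in WT against 275 and 314 in Z/Z, lower in both Z/Z libraries, and did not pass (log2FC −0.30, SE 0.18, edgeR adjusted p = 0.271). Timp1 had 21.4, 48.4, 30.6 and 33.3 CPM, with overlap, and Timp4 had 9.44, 3.34, 2.99 and 3.04 CPM, and neither passed. Adamts9, a proteoglycanase, had 212 and 183 CPM in WT against 170 and 156 in Z/Z and did not pass (log2FC −0.14, SE 0.14, edgeR adjusted p = 0.53). Adamts19 differed more between the WT libraries, at 21.1 and 122 CPM, than between genotypes, at 69.0 and 41.7 CPM in Z/Z.

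**Figure D2:**
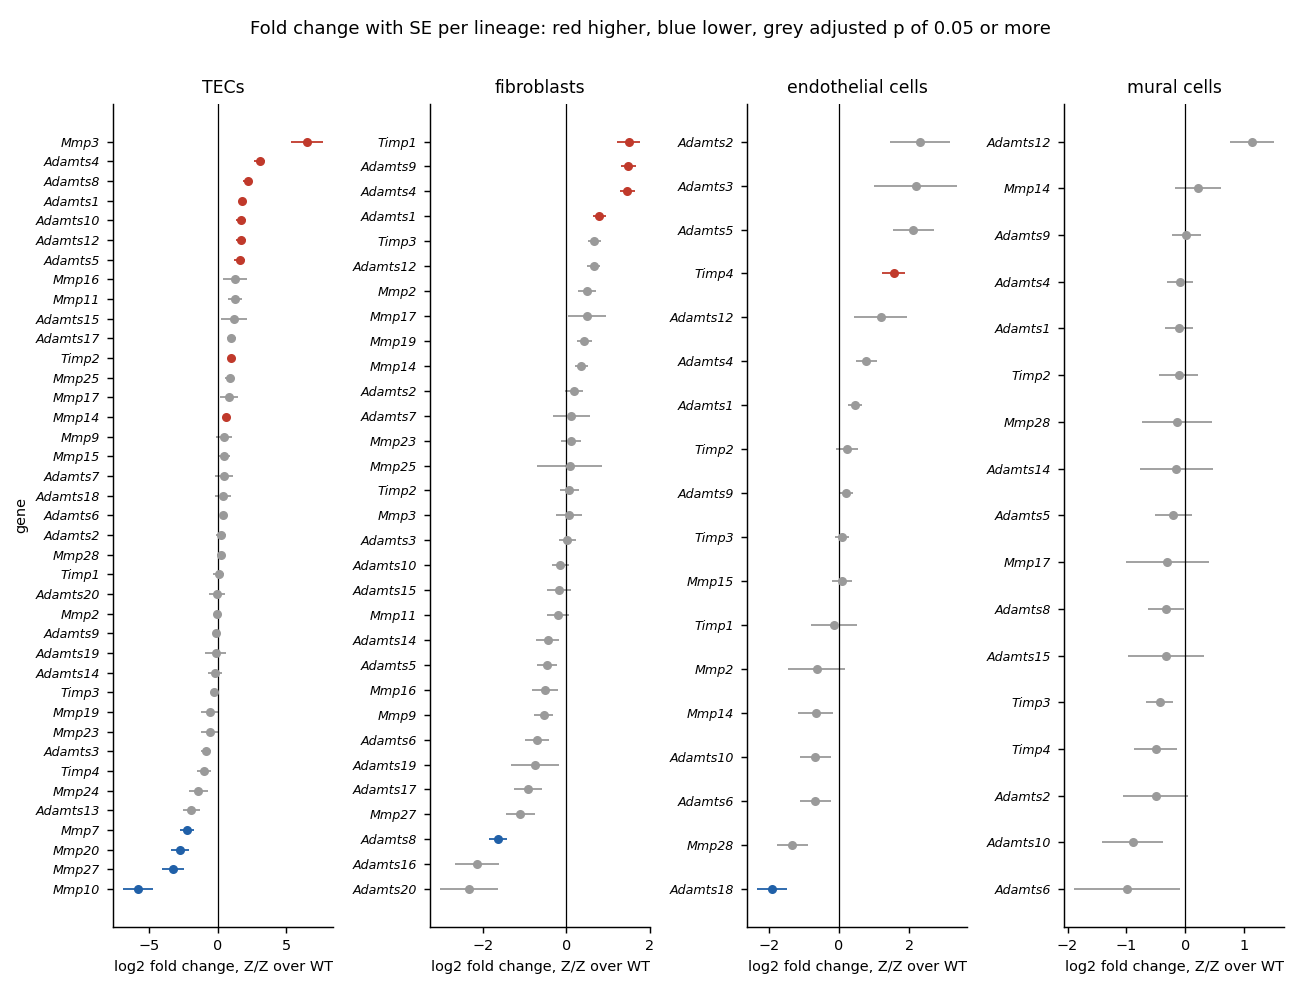
Log2 fold change of Z/Z over WT (x axis) with its standard error for every member tested (y axis) in each lineage, red where higher and blue where lower past an adjusted p of 0.05, grey otherwise. Red and blue points are 9 and 4 of 39 in TECs, 4 and 1 of 31 in fibroblasts, 1 and 1 of 18 in endothelial cells and 0 of 17 in mural cells.

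Levels of the called members differed between epithelial classes, described here without a test because the classes come from the same cells. Members were held out of the clustering. Clusters 0 and 5 scored highest for Pdpn, Vim, H2-Aa and Plet1, had few cells with Epcam, and are called aaTEC2-like after the age-associated TECs of the study. They held 12, 0, 554 and 382 cells. In Z/Z 1 and Z/Z 2 they made up 16.1% and 12.6% of TEC UMIs but held 85.9% and 76.7% of Adamts4, 70.3% and 52.3% of Adamts8, 48.9% and 41.9% of Adamts1, 95.2% and 86.5% of Mmp3 and 58.4% and 43.9% of Adamts12. The shares of the other members called higher were lower, at 28.1% and 20.3% of Timp2, 17.2% and 24.6% of Adamts10, 16.3% and 27.3% of Adamts5 and at most 20.0% of Mmp14. Timp1, which was not called in TECs, had 58.5% and 41.1% of its UMIs there, at 111 and 108 CPM. The aaTEC2-like level of Adamts1 was 519 and 470 CPM in Z/Z 1 and Z/Z 2, and that of Adamts4 was 362 and 329 CPM. Only 12 WT cells, all from WT 1, were of this class, and they held 95 UMIs of Adamts1, 50 of Adamts4 and 0 of Mmp3. Between both clusters, Mmp3 was at 251 CPM in cluster 5 and 27.3 in cluster 0, while Adamts4 was at 438 CPM in cluster 0 and 166 in cluster 5. Outside the aaTEC2-like clusters Adamts1 was still at 40.9 and 51.8 CPM in WT against 104 and 94.0 in Z/Z. There Adamts4 was at 6.74, 3.76, 11.5 and 14.4 CPM, Adamts8 at 4.03, 3.34, 7.38 and 8.61 and Timp2 at 41.3, 40.1, 64.7 and 64.5, each higher in both Z/Z libraries. Free RNA, estimated over all TECs, would have given 12.9, 5.33, 22.3 and 25.7 CPM of Adamts4, more than was measured there in every library. For Timp2 it would have given 63.0 CPM in WT 1, also more than was measured. In these cells the estimate was thus too high for Adamts4, and in WT 1 for Timp2.

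When the aaTEC1-like and aaTEC2-like clusters were left out of the sums, 4 members were called higher (Adamts1, Adamts10, Adamts17 and Timp2) and 1 lower (Mmp10). The log2FC of Adamts1 was then 1.61, that of Adamts4 1.41 (edgeR adjusted p = 0.0547) and that of Adamts8 1.22 (edgeR adjusted p = 0.154).

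TEC cluster 3 scored highest for Aire, Fezf2, Cd80, Cd40 and H2-Oa, markers of mature medullary TECs, and held 269, 47, 50 and 70 cells. Over all libraries it held 96.9% of the Mmp7, 95.9% of the Mmp20 and 97.5% of the Mmp10 UMIs of TECs. It also held 81.6% of Adamts13, the protease of von Willebrand factor, and 81.1% of Mmp23, which were named after their values were seen. Within cluster 3, Mmp7 was at 88.8 and 56.8 CPM in WT against 75.0 and 111 in Z/Z, and Mmp20 at 11.6, 8.74, 6.56 and 10.2 CPM, so that the genotypes overlapped. Mmp10 had 37, 2, 0 and 0 UMIs there. Other classes had members of their own. Mmp9, gelatinase B, was highest in the cTEC-like cluster 10 at 83.5 CPM, Adamts19 in the unnamed clusters 7 and 1 at 373 and 196 CPM, and Timp2 and Timp3 in the basal or goblet-like cluster 13 at 217 and 626 CPM.

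**Figure D3:**
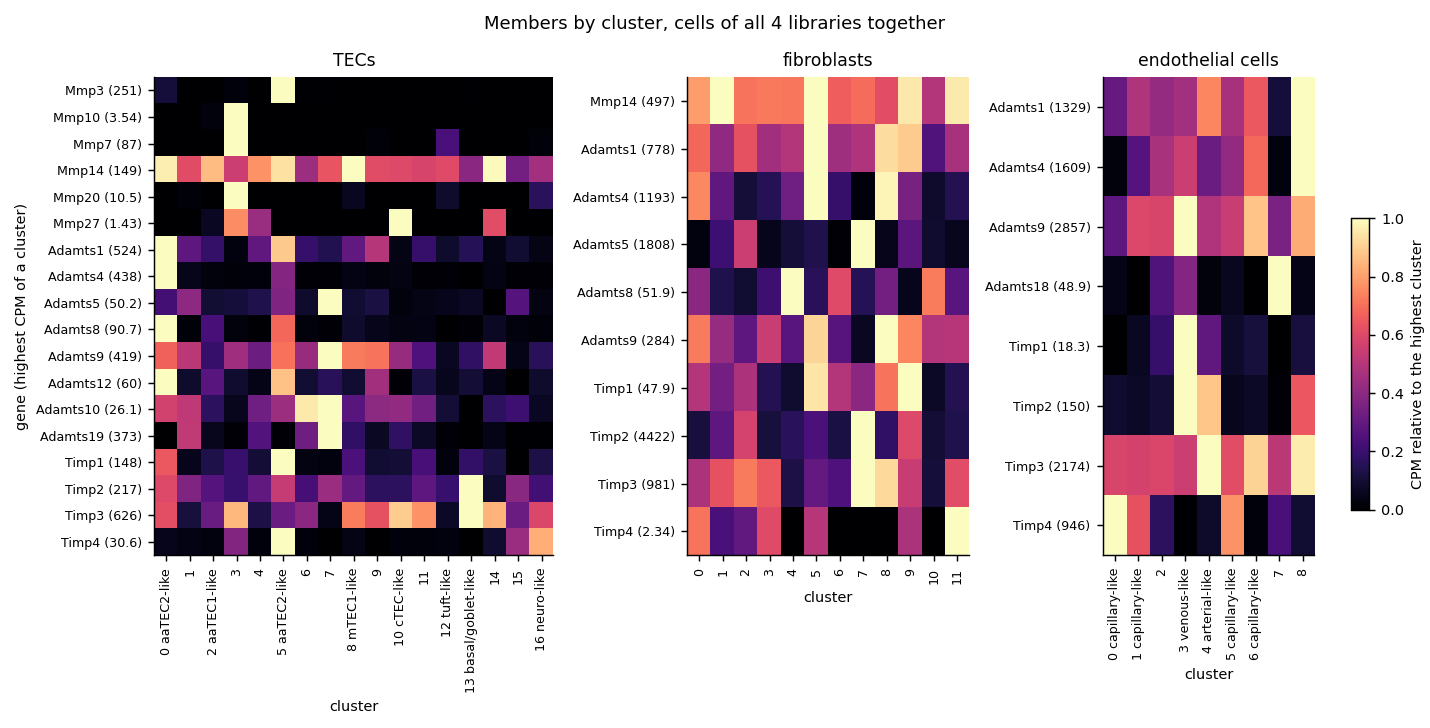
Level of members (lines) in each cluster (columns) of TECs, fibroblasts and endothelial cells, cells of all 4 libraries together, as CPM relative to the cluster with the highest CPM of that gene, which stands in brackets. Adamts1, Adamts4 and Adamts8 peak in TEC clusters 0 and 5, Mmp7, Mmp10 and Mmp20 in TEC cluster 3, Adamts5 and Timp2 in fibroblast cluster 7, and Timp4 in the capillary-like endothelial clusters 0, 1 and 5.

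Fibroblasts had 31 members with enough UMIs to test, and among these 4 rose and 1 fell in Z/Z. Of all 13887 genes tested there, 2.84% were called, 1.68% higher and 1.17% lower, against 16.1% of the members. The median log2FC of the members was 0.06, against 0.00 over all genes. All calls but that of Timp1 lay among the proteoglycanases, of which 3 of 7 were higher and 1 lower. None of the 11 Mmp genes tested passed (edgeR), 4 of them had an unadjusted p under 0.05, and under DESeq2 none passed either. Leaving out Z/Z 1 or Z/Z 2 removed all 5 calls, and leaving out WT 1 or WT 2 kept 4 of them, all but Adamts1. Pericyte markers summed to 324 and 397 CPM in WT fibroblasts and 655 and 362 in Z/Z fibroblasts, with 5 of 7 higher in both Z/Z libraries. Smooth muscle markers summed to 63.4 and 41.2 CPM in WT fibroblasts against 82.3 and 104 in Z/Z, with 4 of 7 higher in both Z/Z libraries. The part of these lists in the results was not tested.

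Adamts9 had 69.1 and 58.9 CPM in WT fibroblasts against 151 and 195 in Z/Z. No Z/Z value reached into the WT range, and the log2FC was 1.49 (SE 0.18, edgeR adjusted p = 0.00417). Adamts4 had 224 and 179 CPM in WT against 472 and 597 in Z/Z, with a log2FC of 1.46 (SE 0.19, edgeR adjusted p = 0.00542). Adamts1 had 323 and 316 CPM in WT against 506 and 559 in Z/Z, with a log2FC of 0.80 (SE 0.16, edgeR adjusted p = 0.0313). All 3 were higher in both Z/Z libraries. Adamts8 was the exception among the proteoglycanases, at 30.0 and 36.7 CPM in WT against 10.4 and 10.0 in Z/Z, a log2FC of −1.63 (SE 0.22, edgeR adjusted p = 0.0065).

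Timp1 had 12.1 and 6.34 CPM in WT fibroblasts against 25.2 and 27.7 in Z/Z, without overlap (log2FC 1.50, SE 0.28, edgeR adjusted p = 0.025). The log2FC was 2.11 without WT 1. In cells thinned to 2000 UMIs its log2FC was 0.19 and did not pass (edgeR adjusted p = 0.903). Timp3 had 380 and 384 CPM in WT against 598 and 569 in Z/Z. It narrowly missed the threshold (log2FC 0.67, SE 0.15, edgeR adjusted p = 0.0575), and passed under DESeq2 (adjusted p = 0.00443) and after thinning (edgeR adjusted p = 0.0411). Timp2, Adamts5 and Mmp14 did not pass. Their log2FC values were 0.08 (SE 0.22) for Timp2, −0.46 (SE 0.23) for Adamts5 and 0.36 (SE 0.16) for Mmp14.

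Fibroblast clusters differed in these genes and in genotype. Clusters 5 (led by Cxcl5), 8 (Tagln, Myl9) and 0 (Cxcl10, Sele) had the highest Adamts4, at 1193, 1170 and 898 CPM. They came mostly from Z/Z, with 8, 1, 97 and 126 cells in cluster 5, 8, 1, 73 and 70 in cluster 8 and 6, 5, 308 and 74 in cluster 0. Clusters 4 (led by Csf2rb and Ccnd1) and 10 (Htr1f, Pcdh15) had the highest Adamts8, at 51.9 and 37.8 CPM, and came mostly from WT, with 196, 84, 4 and 6 cells in cluster 4 and 81, 29, 8 and 10 in cluster 10. Cluster 7, led by Sbsn and Igfbp5 and with Pi16, had the highest Adamts5 (1808 CPM), Timp2 (4422 CPM) and Timp3 (981 CPM).

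Clusters 1, 2 and 6 held at least 10 cells of every library. Adamts4 was at 250, 214, 373 and 406 CPM in cluster 1 and at 15.2, 69.7, 119 and 170 in cluster 2, higher in both Z/Z libraries in each. In cluster 6 it was at 233, 163, 238 and 222 CPM, where the genotypes overlapped. Adamts1 was likewise higher in both Z/Z libraries in clusters 1 (246, 264, 331 and 356 CPM), 2 (217, 247, 562 and 482) and 6 (324, 228, 325 and 475), in the last by 1 CPM at the closest. Adamts8 was lower in both Z/Z libraries in cluster 6, at 35.8, 55.8, 22.8 and 24.5 CPM.

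In endothelial cells 18 members could be tested, with 1 higher and 1 lower in Z/Z, where 2.13% of 11416 genes were called, 1.09% higher and 1.04% lower. The median log2FC of the members was 0.14, against 0.03 over all genes. Timp4 had 123 and 31.5 CPM in WT against 263 and 302 in Z/Z, with a log2FC of 1.56 (SE 0.33, edgeR adjusted p = 0.0349). The Z/Z libraries lay above both WT libraries, and WT 2 rested on 6 UMIs. Without WT 1 the log2FC of Timp4 was 3.30 and without WT 2 it was 1.18. Timp4 was the leading gene of the capillary-like cluster 0 (946 CPM) and also high in the capillary-like clusters 5 (735 CPM) and 1 (592 CPM), which together held most of its UMIs, at 28.9%, 17.2% and 34.7%. Those clusters had 4 and 1, 2 and 0, and 5 and 0 WT cells, so the genotypes could not be compared within them. Adamts18 had 24.5 and 21.0 CPM in WT against 6.76 and 5.81 in Z/Z, from 23, 4, 35 and 28 UMIs (log2FC −1.91, SE 0.43, edgeR adjusted p = 0.0429), and passed in 5 of 15 alternatives. The venous-like cluster 3 held 47.8% of its UMIs. Pericyte markers summed to 85.3 and 73.6 CPM in WT endothelial cells and 279 and 282 in Z/Z, with 6 of 7 higher in both Z/Z libraries and none at 0 in every library. Without cluster 8, which had the highest UMIs per cell and carried mural genes, Timp4 stayed past the threshold and Adamts18 had a log2FC of −1.84 (edgeR adjusted p = 0.0594). Adamts18 had 0 UMIs in mural cells.

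The other members described in endothelial cells did not pass. Adamts9 had 1700, 1677, 1925 and 1942 CPM (log2FC 0.20, SE 0.20), Timp3 had 1357, 1577, 1505 and 1568 CPM (0.08, SE 0.20), and Adamts1 had 563, 505, 707 and 761 CPM (0.45, SE 0.20). Adamts4 had 549, 263, 609 and 862 CPM (0.77, SE 0.30, edgeR adjusted p = 0.193), and passed without WT 1 at a log2FC of 1.62. Timp1 (−0.15, SE 0.65) and Timp2 (0.23, SE 0.32) had overlapping libraries.

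In mural cells 17 members were tested and 0 were called by edgeR, with 1 at an unadjusted p under 0.05 (Adamts12) and 0 under DESeq2. Of the 8576 genes tested there 0.0350% were called, 0.0233% higher and 0.0117% lower, and WT 2 held 11 cells, so little could be detected. Adamts4 had 1926, 1952, 1673 and 1953 CPM (log2FC −0.09, SE 0.22) and Adamts1 had 1988, 1640, 1691 and 1684 CPM (−0.11, SE 0.23). Adamts9 had 1293, 1744, 1559 and 1470 CPM (0.01, SE 0.25). Timp3 was lower in both Z/Z libraries, at 1874 and 2021 CPM in WT against 1449 and 1412 in Z/Z, and did not pass (−0.44, SE 0.23, edgeR adjusted p = 0.611). Adamts5 (−0.21, SE 0.31), Timp2 (−0.12, SE 0.32) and Timp4 (−0.51, SE 0.36) did not pass, and Timp1, at 3, 5, 13 and 9 UMIs, was not tested.

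**Figure D4:**
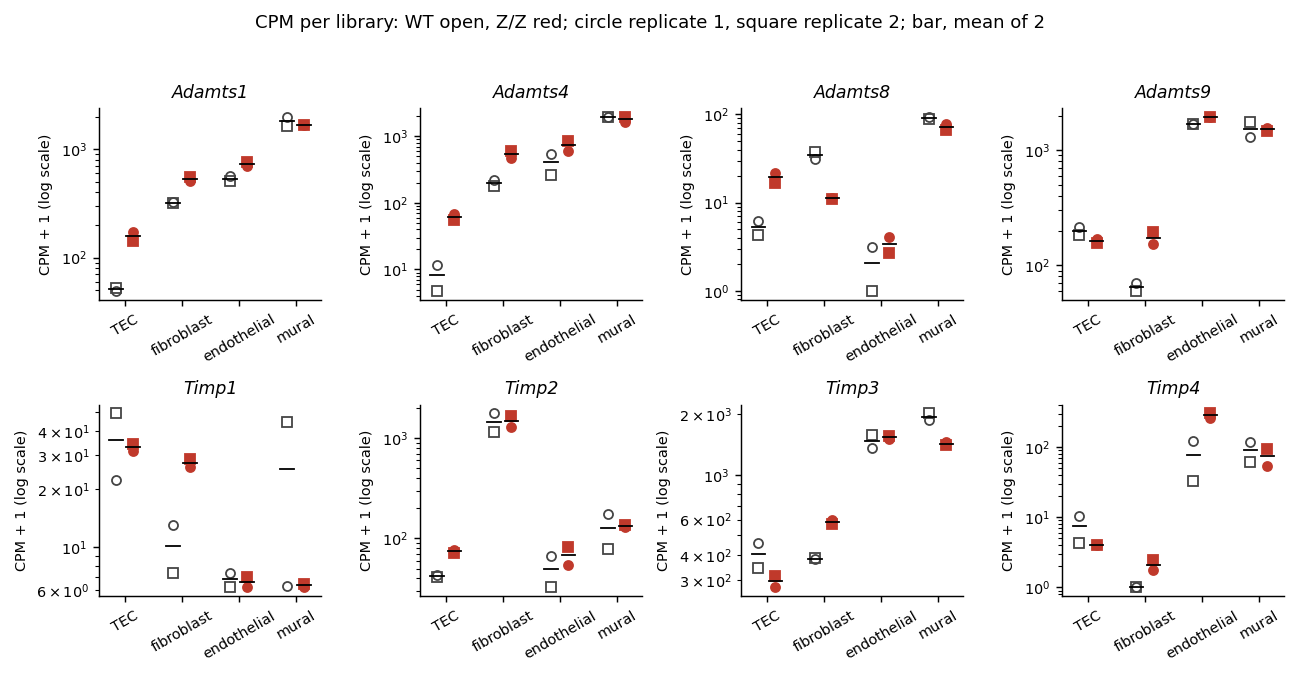
CPM + 1 on a log axis in each library (WT open, Z/Z red, circle for replicate 1 and square for replicate 2, bar at the mean of 2) for selected members in the 4 lineages. Adamts1 and Adamts4 are higher in both Z/Z libraries in TECs and fibroblasts and overlap in mural cells, and Adamts8 is higher in Z/Z TECs and lower in Z/Z fibroblasts.

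Whether the effect of genotype differed between lineages was tested by interaction over 38 members. Between TECs and fibroblasts it differed for 10 members, where 13.6% of 16576 genes differed. Adamts8 went in opposite directions, up in TECs and down in fibroblasts, by a difference of 3.67 on the log2 scale (SE 0.35, edgeR adjusted p = 1.05e-06), and passed in 7 of 7 alternatives. Mmp3 differed by 6.23 (SE 0.63), since fibroblasts had 133, 77.5, 74.1 and 139 CPM with overlap. Adamts4 differed by 1.63 (SE 0.38) and Adamts1 by 0.97 (SE 0.27), with the larger increase in TECs. Adamts9 differed by −1.67 (SE 0.28), called in fibroblasts and not in TECs, and Timp3 by −1.01 (SE 0.26). Between TECs and endothelial cells 4 members differed (7.38% of all genes), namely Timp4, Adamts4, Adamts10 and Adamts1, and between fibroblasts and endothelial cells 1 did (0.513% of all genes), Adamts5.

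A list of 58 genes that activate, inhibit, clear or serve as substrates of these proteases was examined beside them. In TECs 55 could be tested, and 12 rose and 10 fell, 40.0% against the 22.4% of all genes. Lrp1, an endocytic receptor that clears MMPs and ADAMTS proteases, had 19.5 and 21.7 CPM in WT against 100 and 92.4 in Z/Z (log2FC 2.39, SE 0.17, edgeR adjusted p = 0.00653). Serpine2, an inhibitor of plasminogen activators and thrombin, had 30.2 and 29.2 CPM in WT against 162 and 129 in Z/Z (2.44, SE 0.18). Both rose without overlap. Sparc, a collagen-binding protein, rose by 1.74 and the tetraspanin Cd151 by 1.48. The sheddase Adam8, at 43.6, 48.4, 10.3 and 12.8 CPM, and the testican Spock1, at 136, 91.9, 31.7 and 31.8 CPM, had log2FC values of −1.84 and −1.71.

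In fibroblasts 46 of the related genes could be tested, of which 2 rose and 6 fell, where 1.68% of all genes tested were higher and 1.17% lower. Thbs1, thrombospondin-1, had 125 and 167 CPM in WT against 418 and 375 in Z/Z (log2FC 1.50, SE 0.19, edgeR adjusted p = 0.00522). The ADAMTS-like Papln and Adamtsl3 had log2FC values of −1.83 and −0.90, the sheddase Adam10 and the procollagen C-proteinase relative Tll2 of −0.83 and −1.15, and Serpine2, which rose in TECs, of −0.83. In endothelial cells 42 were tested, where 2.13% of all genes were called, with Sparc higher (1.07, SE 0.24) and Fbn1, fibrillin-1, and Thbs1 lower (−1.58, SE 0.25 and −0.96, SE 0.23). Sparc (edgeR adjusted p = 0.0415) and Thbs1 (edgeR adjusted p = 0.0489) lay close to the threshold, and Thbs1 missed it under DESeq2 (adjusted p = 0.123). In cells thinned to 2000 UMIs Sparc, Fbn1 and Thbs1 did not pass (edgeR adjusted p = 0.166, 0.101 and 0.519). In mural cells 32 were tested and 0 were called by edgeR, with 5 at an unadjusted p under 0.05 and 0 under DESeq2.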

How the data were processed

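The authors aligned droplet 3′ reads to the mouse genome and counted UMIs per gene, introns included, with Cell Ranger (7.01 in the submitters' processing notes, with mm10 and GRCm38.p5), and deposited raw UMI counts per gene and barcode. The percent values used, such as sequencing saturation (65.2% to 95.2%), are shares of reads as deposited in the authors' Cell Ranger summaries. Here, cells with more than 1000 genes and under 20% mitochondrial UMIs were kept. The automatic doublet threshold marked 13 of 10245 cells (0.127%), so the 3.9% with the highest doublet score in each library were removed instead, 399 in all. Cells were clustered with scanpy 1.11.5 and leidenalg 0.10.2 (3500 variable genes, 35 components, 45 for epithelium, 20 neighbours, resolution 1), without the members or related genes, and named from marker lists. UMIs were summed per library and lineage, without 101 ribosomal and haemoglobin genes. Z/Z and WT were compared over these sums by the quasi-likelihood test of edgeR 4.0.16 (R 4.3.3, TMM factors, two-sided) with Benjamini-Hochberg adjustment over all genes tested and a threshold of 0.05. CPM values are without TMM factors. The scripts were tested on simulated data. Alternatives included DESeq2 1.42.0, no filter, a replicate block, other cell filters and leaving out each library.

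Only 2 libraries stood for each genotype, and an exact permutation test cannot go below p = 0.333 there. Each library pooled mice, so p-values measure the spread between libraries. Whether libraries of 1 genotype that share barcodes are independent was not tested, and p-values are too small if they are not. UMI intervals (95%, exact) cover counting error only, and 0 UMIs in a group were bounded by 3 counts. The members and lists were chosen with earlier results of these data known. Named were every member past the threshold, the 5 members with the highest mean CPM in a lineage, the 4 Timps, Foxn1, and at most 6 related genes per lineage. Other genes are named where this is said or where their difference between lineages passed. Promoters came from RefSeq.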

Additional observations from a re-analysis of the deposited data

Results flagged for a closer look

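The difference between lineages in the effect of Z/Z was tested for each member, and 15 differences passed, given as log2FC in the first lineage minus that in the second. Between TECs and fibroblasts Adamts8 differed by 3.67, Mmp3 by 6.23, Adamts5 by 2.08, Adamts17 by 1.94, Adamts10 by 1.77, Adamts4 by 1.63 and Adamts1 by 0.97, all higher in TECs. Adamts9 differed by −1.67, Timp3 by −1.01 and Timp4 by −7.25, all lower in TECs. The Timp4 value rests on 0, 0, 9 and 11 UMIs in fibroblasts, at or below the level expected from free RNA. Adamts5 in TECs was below that level in both WT libraries and above it by less than 2 times in both Z/Z libraries. Between TECs and endothelial cells Timp4 differed by −2.92, Adamts4 by 2.06, Adamts10 by 2.14 and Adamts1 by 1.12. Between fibroblasts and endothelial cells Adamts5 differed by −2.94, where WT endothelial cells had 4 and 1 UMIs of it.

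Members also had signal in cells that no comparison used, above their level in the TECs, fibroblasts, endothelial and mural cells of every WT and Z/Z library. The unnamed cluster 17, with 104 cells from Z/Z 1 and 32 from Z/Z 2 and led by Ctnna2 and Luzp2, had Adamts17 at 464 CPM, from 393 and 151 UMIs, with a UMI in 82.4% of cells. It had Timp1 at 48.6 CPM (53 and 4 UMIs), next to 48.4 CPM in the TECs of WT 2, Mmp12 at 29.0 CPM (33 and 1 UMIs, in 2.21% of cells) and Adamts20 at 8.52 CPM (9 and 1 UMIs). The unnamed cluster 19, with 5 cells from WT 1 and 91 from Z/Z 2 and led by Gpr132 with Cd8a and Lat among its leading genes, had Adamts6 at 130 CPM (2 UMIs in WT 1 and 25 in Z/Z 2) and Adamts10 at 67.6 CPM (14 UMIs, all in Z/Z 2). Cluster 19 also held Timp3 at 487, Timp2 at 478, Adamts1 at 454 and Adamts4 at 299 CPM. Haematopoietic cells of WT reached 355 CPM of Adamts6. Free RNA was not estimated for clusters 17 and 19, and these UMIs are not read as expression by their cells.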

How the results depend on the processing

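In TECs the 9 members called higher became 5 with the replicate block, 4 in cells thinned to 2000 UMIs, 4 without the aaTEC clusters, 0 without any shared barcode and 2 to 10 when 1 library was left out, and the 4 called lower became 1, 2, 1, 0 and 0 to 6. In fibroblasts the 4 higher became 6 under DESeq2, 8 with no filter and 0 to 3 with 1 library left out, and the 1 lower became 2 under DESeq2, 3 with no filter, 2 with the block, 0 thinned and 0 to 1 with 1 library left out. In endothelial cells the 1 higher became 3 with no filter, 2 without doublet removal, 0 without shared barcodes, with more than 500 genes or thinned, and 1 to 2 with 1 library left out. The 1 lower there became 0 under DESeq2 (Adamts18 had no adjusted p), with the block, with free RNA subtracted, without shared barcodes, with more than 500 genes, with under 10% mitochondrial UMIs, thinned or without the high-UMI cluster, and 0 to 2 with 1 library left out. Mural cells had 0 called, and 0 to 1 lower with 1 library left out. Without shared barcodes, mural cells were not run, with 8 cells in the smallest library. Foxn1 passed under DESeq2 (−0.72) and with no filter (−0.63), and ranged from −0.94 (without WT 1) to −0.42 with 1 library left out. Over all 16 alternatives its log2FC ranged from −0.94 to −0.14, so that in the weakest of them little of the difference was left.

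The 10 differences between TECs and fibroblasts became 16 with no filter and 5 to 16 with 1 library left out. The 4 between TECs and endothelial cells became 2 to 6. The 1 between fibroblasts and endothelial cells became 2 under DESeq2, 2 with no filter, 0 with a replicate block in place of the library block and 0 to 1 with 1 library left out. The replicate numbers did not pair the samples (correlation of deviations −0.0863 to −0.00673), so the block is given here only.

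Of values for the 35 results named as called, related genes included, 393 kept their direction and call, 148 kept the direction alone and 0 reversed. Of the 22 not called, 293 stayed, 8 passed and 28 reversed. In TECs Adamts19 turned to 0.23 with the block, 0.36 thinned and 0.29 without the aaTEC clusters, and ranged from −1.02 (without WT 1) to 1.58 (without WT 2) with 1 library left out, at 0.17 without Z/Z 2. Timp1 there turned to −0.21 thinned and −0.82 without the aaTEC clusters, and ranged from −0.48 (without WT 1) to 0.76 (without WT 2). In fibroblasts Timp2 ranged from −0.18 (without WT 2) to 0.41 (without WT 1), at −0.12 without Z/Z 2. In endothelial cells Timp1 ranged from −0.21 (without WT 2) to 0.23 (without WT 1), and Timp2 from −0.028 (without Z/Z 2) to 1.22 (without WT 1), at −0.051 with free RNA subtracted. In mural cells Adamts4 turned to 0.039 with no filter and ranged from −0.15 (without Z/Z 2) to 0.013 (without WT 1), at 0.00038 without Z/Z 1. Adamts1 there turned to 0.023 with no filter and 0.0026 thinned, and ranged from −0.23 (without WT 2) to 0.16 (without WT 1). Adamts9 turned to −0.074 with under 10% mitochondrial UMIs and −0.0065 at resolution 2, and ranged from −0.079 (without WT 1) to 0.23 (without WT 2), at −0.049 without Z/Z 1. Adamts5 turned to 0.061 thinned and ranged from −0.43 (without WT 2) to 0.54 (without WT 1), Timp2 turned to 0.036 with the block and ranged from −0.40 (without WT 2) to 0.87 (without WT 1), and Timp4 ranged from −0.79 (without Z/Z 2) to 0.36 (without WT 1). The causes were not tested.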

Other observations

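Mesothelial cells were too few in WT to compare genotypes. In Z/Z 2, where 27 were kept, Timp2 was at 2676 CPM with a UMI in 96.3% of cells, Timp3 at 435 CPM and Adamts9 at 194 CPM. Mmp23, an MMP without a hemopexin domain, was at 316 CPM, with a UMI in 85.2% of cells. These genes were chosen after their values were seen.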
